A study of Mus musculus with 48 samples.

Results

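The effect of silencing PPARγ on gene expression was examined at a late stage of fat cell formation, on day 5 of differentiation of 3T3-L1 cells, a mouse preadipocyte line of fibroblast shape that hormones drive to become adipocytes. The comparison used all 3 arrays of cells given PPARγ siRNA (PPARγ KD) and all 3 arrays of cells given control siRNA on that day, 6 of the 48 arrays of the series, and covered every one of the 24613 probes. In the whole series both siRNAs were followed on day −2 and on days 0 to 6, with 3 biological replicates of each. Cells of both groups received 50 nM of a pool of siRNAs before differentiation, directed against PPARγ in one group and non-targeting in the other. All cells were then treated at confluence, on day −2, with 0.5 mM IBMX and 0.25 µM dexamethasone, and from day 0 with 5 µg/ml insulin and 1 µM rosiglitazone, an agonist of PPARγ, for 48 hours. The control cells of day 5 are thus differentiating adipocytes 5 days after their first contact with a PPARγ agonist. Both groups are 1 cell line, and the biological replicates are not separate animals.

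PPARγ is a nuclear receptor that binds DNA as a heterodimer with a retinoid X receptor and is activated by fatty acid derivatives and by thiazolidinediones. It works together with C/EBPα to switch on the genes of the mature fat cell, among them those for lipid uptake, triglyceride storage, lipolysis, insulin-dependent glucose uptake and secreted adipokines. Fibroblasts that lack it keep genes of the matrix and of the preadipocyte state and store little fat.

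The deposited values are the mean bead signals of each probe before any normalization. They were background-corrected, scaled on probes of invariant rank and put on a log2 scale, so that a log2 signal is a level on 1 probe and a log2 difference is PPARγ KD minus control. Adjusted p-values are those of limma with Bonferroni correction over the 24613 probes, and a probe is called at an adjusted p of at most 0.05. Between 34.2% and 38.4% of the probes of an array were above background (detection p under 0.01) on day 5, with the lowest shares (34.2% and 35.0%) on the 2 arrays of replicate 3. Where none of a group's 3 arrays read a probe above background, that group has only an upper limit, and the change is written as at least so many fold. RNA came from whole cultures, so fewer adipocytes and less RNA per adipocyte cannot be told apart in any of these values.

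The target of the siRNA was low in each culture. Pparg, read by probe 6130632, had log2 signals of 12.22, 12.11 and 12.11 under control siRNA and 9.52, 9.69 and 9.51 in the PPARγ KD. The groups lay more than 2 log2 units apart on every replicate number, and the difference was −2.57 (SE 0.11, 5.95-fold lower, adjusted p = 5.55e-19). Probe 1990168 of the same gene read 9.57, 9.55 and 8.96 in control cells and was above background on none of the PPARγ KD arrays, which makes it at least 7.03-fold lower. Probe 2680603 was likewise at least 2.45-fold lower. All 3 probes of Pparg therefore fell on day 5, and the brightest of them was still above background in all 3 PPARγ KD cultures.

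On day 5, 798 probes under 720 gene names differed between PPARγ KD and control siRNA, which is 3.24% of those tested. Of these, 659 (82.6%) were lower in the PPARγ KD and 139 were higher, or 2.68% and 0.565% of all probes. The falls were also the larger changes. The median log2 difference was −1.05 among the lower and 0.65 among the higher probes, 357 lower against 18 higher probes changed by at least 2-fold, and 55 lower against 0 higher probes by at least 8-fold. All 798 probes moved the same way in the 3 replicate pairs, beside 8937 of all 24613 probes. For 747 of the 798 the 3 signals of each group did not overlap, beside 12.4% of all probes. Both counts come from the arrays that gave the calls, so they are not separate support for them. In the PPARγ KD, 131 of the lower probes were above background on no array. The count and its split moved with the processing: quantile normalization gave 961 probes with 71.6% lower, the fit without the replicate block gave 430 with 92.1% lower, and Benjamini-Hochberg adjustment gave 2605 with 56.5% lower (5.98% of all probes lower and 4.6% higher). Leaving out replicate 1 or replicate 2 left 378 and 398 probes.

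**Figure D1:**
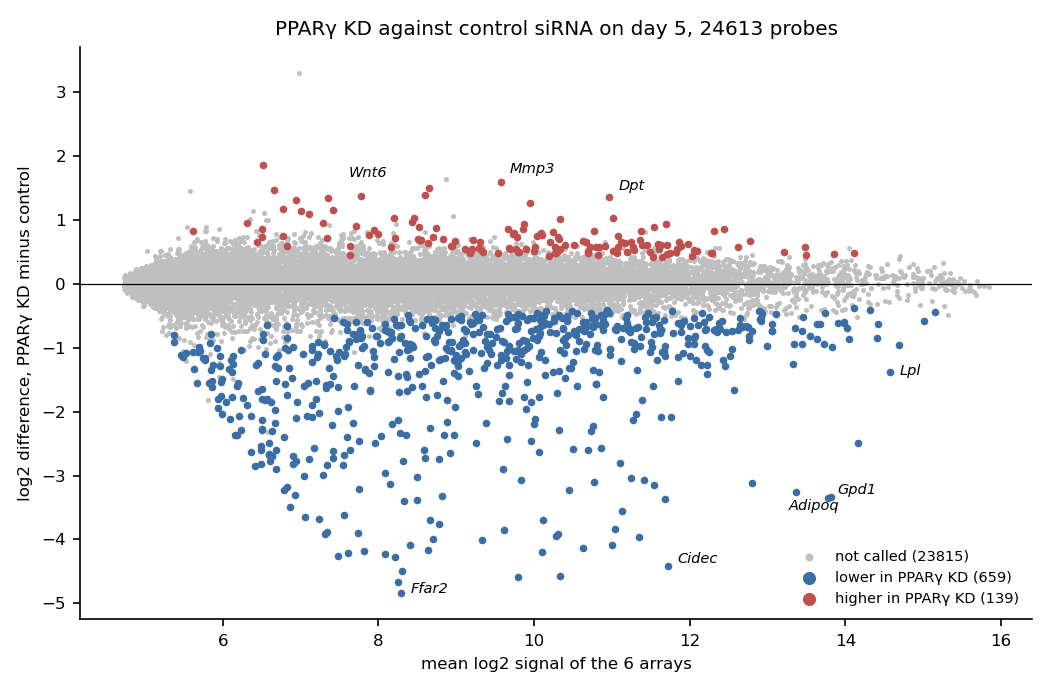
The log2 difference on day 5 (y axis, PPARγ KD minus control) against the mean log2 signal of the 6 arrays (x axis), with 1 point per probe. The 659 lower probes (blue) reach below −4 while the 139 higher probes (red) stay under 2, and the sloping left edge is formed by probes that fell to background in the PPARγ KD.

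The 15 largest falls among probes above background on all 6 arrays held genes of fat storage, secreted proteins and enzymes of lipid and steroid metabolism. Mrap, which carries the ACTH receptor to the cell surface, fell 24.2-fold (log2 difference −4.60, SE 0.22). Cidec, a protein of the lipid droplet surface that lets droplets fuse, had log2 signals of 14.23, 13.93 and 13.62 in control cells and 9.62, 9.56 and 9.34 in the PPARγ KD. Its difference was −4.42 (SE 0.22, adjusted p = 2.11e-17), and every control signal stood far above every PPARγ KD signal. G0s2, an inhibitor of the triglyceride lipase ATGL, followed at −4.20. Acsl1, which activates fatty acids with coenzyme A, changed by −3.95, and Gpd1, which makes the glycerol phosphate for triglycerides, by −3.34. Of the secreted proteins, Orm1 (orosomucoid), Apoc1 (an apolipoprotein) and Hp (haptoglobin) changed by −4.13, −3.96 and −3.84. Hsd11b1, the enzyme that regenerates active glucocorticoid, fell 10.3-fold with the lowest adjusted p of these genes (3.06e-24), and Ltc4s, the leukotriene C4 synthase, fell 14.5-fold. The others were Ppp1r1a (−3.99), an inhibitor of protein phosphatase 1, the carboxylesterase listed as CES3 (−3.91), Poln (−3.76), Ubd (−3.70) and BC054059 (−4.57). Orm1 and CES3 belong to families of near-identical genes, and a probe may read more than 1 member.

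A further set of genes dropped out of detection. Ffar2, a receptor for short-chain fatty acids, had signals of 10.75, 10.91 and 10.47 in control cells and 5.84, 5.86 and 5.90 in the PPARγ KD, where it was above background on no array. It was at least 17.9-fold lower (adjusted p = 1.09e-20). The control signals of Plin1, the perilipin that guards the droplet from lipases, were 9.90, 9.80 and 9.46, and those in the PPARγ KD were 5.04, 5.54 and 5.93. This made Plin1 at least 9.02-fold lower. By the same measure Aatk was at least 16.5-fold lower, BC034902 at least 16.1-fold, Apoc4 at least 12.6-fold, and Hcar2, the nicotinic acid receptor, at least 8.37-fold. Cox8b, Cox7a1 and Aqp7 dropped out of detection too and are described with their pathways.

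In a list of Pparg with its partner receptors and coregulators, 3 of 17 genes were called, all lower (17.6%). Over all genes 3.14% were called lower, and 6.90% of those above background on at least 3 of 6 arrays. The 3 called genes include Pparg itself, the target of the siRNA. Besides Pparg these were Nr1h3, which encodes the oxysterol receptor LXRα (−2.73, SE 0.13), and Ppargc1b, the coactivator PGC-1β, which was at least 1.63-fold lower. Rxra, the usual partner of PPARγ in fat cells, read 8.28, 8.12 and 7.97 in control cells and 7.71, 7.32 and 7.85 in the PPARγ KD. Its difference of −0.50 (SE 0.11) did not pass (adjusted p = 1), although the groups did not overlap. Of 19 adipogenic transcription factors 3 were called (15.8%), again all lower. Cebpa, the partner of PPARγ in the late programme, read 7.72, 7.6 and 7.98 in control cells and was above background on no PPARγ KD array, at least 2.33-fold lower (adjusted p = 1.39e-14). Klf15 changed by −2.17 (SE 0.26), and Ebf2, a factor of adipocyte precursors, was at least 1.64-fold lower. The early factors Cebpb and Cebpd had differences of −0.16 and −0.11, neither of which passed. The calls of Klf15 and Ebf2 were lost without replicate 1 and without replicate 2.

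Promoter sequences of the genes that changed were read from RefSeq (GRCm38.p6) to show the stretch in which a receptor of this kind could bind near a start site, 250 bases before each start. PPARγ with its partner is known to bind a direct repeat of the hexamer AGGTCA with 1 base between the copies. A repeat of AGGNCA (N for any base) with 1 free base between the copies, searched on both strands, was present in the windows of 2 of the 434 lower genes that have one (0.461%), of 0 of 101 higher genes and of 0.4% of all 27025 genes. For the 13496 genes on the array that have a window the share was 0.393%. The hexamer AGGTCA, on either strand, was present for 15.9% of the lower genes, 12.9% of the higher genes and 15.8% of all genes. For genes on the array the share was 14.4%. A hexamer may lie inside the repeat. In these windows of 250 bases the shares among the lower genes are thus close to those among all genes and slightly above those among genes on the array. The differences between these shares were not tested. The study linked binding sites to genes over a wider span and reported its motif as enriched in every class of binding region. It found this near genes induced by PPARγ and, with less significance, near repressed genes. Sites outside the windows were not searched here. The 2 genes with the repeat were Lctl, a klotho-family protein (log2 difference −1.12), and Gcnt2, a glycosyltransferase (−0.76). The windows of Pparg, Ffar2, Apoc4 and Aqp7 are the only ones with the hexamer among the 15 that have a window of the 26 genes examined (Pparg and the largest falls). For genes with several starts 1 window is shown. Each sequence reads 5′ to 3′ on the strand of the gene, and capitals mark the repeat in Lctl and Gcnt2 and the hexamer in the other 4 windows, as its reverse complement where it lies on the other strand.
Lctl, chr9:64116897-64117146, plus strand: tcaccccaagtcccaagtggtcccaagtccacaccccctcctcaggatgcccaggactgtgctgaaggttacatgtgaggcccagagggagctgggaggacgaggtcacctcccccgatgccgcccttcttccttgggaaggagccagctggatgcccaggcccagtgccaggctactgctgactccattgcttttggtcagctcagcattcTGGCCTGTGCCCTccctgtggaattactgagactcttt
Gcnt2, chr13:40886508-40886757, plus strand: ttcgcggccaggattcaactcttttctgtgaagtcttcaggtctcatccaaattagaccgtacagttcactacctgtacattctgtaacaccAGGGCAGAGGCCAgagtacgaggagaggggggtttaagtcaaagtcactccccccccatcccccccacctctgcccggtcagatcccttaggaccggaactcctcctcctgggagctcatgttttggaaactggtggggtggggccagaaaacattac
Pparg, chr6:115360894-115361143, plus strand: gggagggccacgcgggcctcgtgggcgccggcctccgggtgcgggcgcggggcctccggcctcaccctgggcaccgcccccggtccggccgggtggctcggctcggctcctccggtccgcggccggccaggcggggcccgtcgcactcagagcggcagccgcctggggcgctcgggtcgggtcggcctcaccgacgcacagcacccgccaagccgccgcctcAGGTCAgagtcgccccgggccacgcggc
Ffar2, chr7:30821193-30821442, minus strand: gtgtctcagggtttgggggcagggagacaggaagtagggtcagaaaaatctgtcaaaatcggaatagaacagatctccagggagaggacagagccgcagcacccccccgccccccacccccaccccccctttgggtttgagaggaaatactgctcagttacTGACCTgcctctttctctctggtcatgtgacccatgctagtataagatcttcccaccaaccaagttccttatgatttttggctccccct
Apoc4, chr7:19681461-19681710, minus strand: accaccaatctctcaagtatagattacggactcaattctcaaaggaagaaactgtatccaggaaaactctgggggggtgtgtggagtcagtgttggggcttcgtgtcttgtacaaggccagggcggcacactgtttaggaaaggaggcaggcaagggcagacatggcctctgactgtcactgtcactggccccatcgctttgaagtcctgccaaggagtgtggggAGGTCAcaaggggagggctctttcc
Aqp7, chr4:41047963-41048212, minus strand: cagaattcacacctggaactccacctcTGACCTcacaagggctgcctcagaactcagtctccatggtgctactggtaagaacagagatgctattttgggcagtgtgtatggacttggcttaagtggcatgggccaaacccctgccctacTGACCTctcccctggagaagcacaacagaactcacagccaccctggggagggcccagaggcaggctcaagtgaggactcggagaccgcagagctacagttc

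Of the gene lists examined, the markers by which a fat cell is recognised had the lowest median. Of 10 such markers 9 were called, all lower, with a median log2 difference of −3.18, or −2.81 with the 3 genes lost in the PPARγ KD set to their bounds. With Benjamini-Hochberg adjustment all 10 passed as lower. The median over all 17101 genes was −0.00, with 3.14% of them called lower and 0.678% higher. Among genes above background on at least 3 of the 6 arrays these shares were 6.90% and 1.54%. Adipoq, which encodes adiponectin, had signals of 15.05, 15.13 and 14.82 in control cells and 11.87, 11.84 and 11.51 in the PPARγ KD, a 9.60-fold fall. It was nevertheless above background on all 3 PPARγ KD arrays. Slc2a4, the insulin-responsive glucose transporter GLUT4, read 9.23, 9.21 and 8.78 in control cells and between 5.06 and 5.66 in the PPARγ KD, at least 5.76-fold lower. Lpl, the lipase that frees fatty acids from lipoproteins, changed least of the 9, from 15.25, 15.16 and 15.38 to 13.92, 13.74 and 14.01 (−1.38, SE 0.10). Fabp4, the fatty acid carrier aP2, was the marker not called: its control signals of 9.20, 7.30 and 6.72 were spread over more than 2 log2 units and only 2 of them were above background, against 5.39, 5.07 and 5.81 in the PPARγ KD. The probe of the fatty acid transporter Cd36 behaved alike, with control signals of 7.42, 7.21 and 5.51, and the difference of −1.81 (SE 0.47) was not called either.

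**Figure D2:**
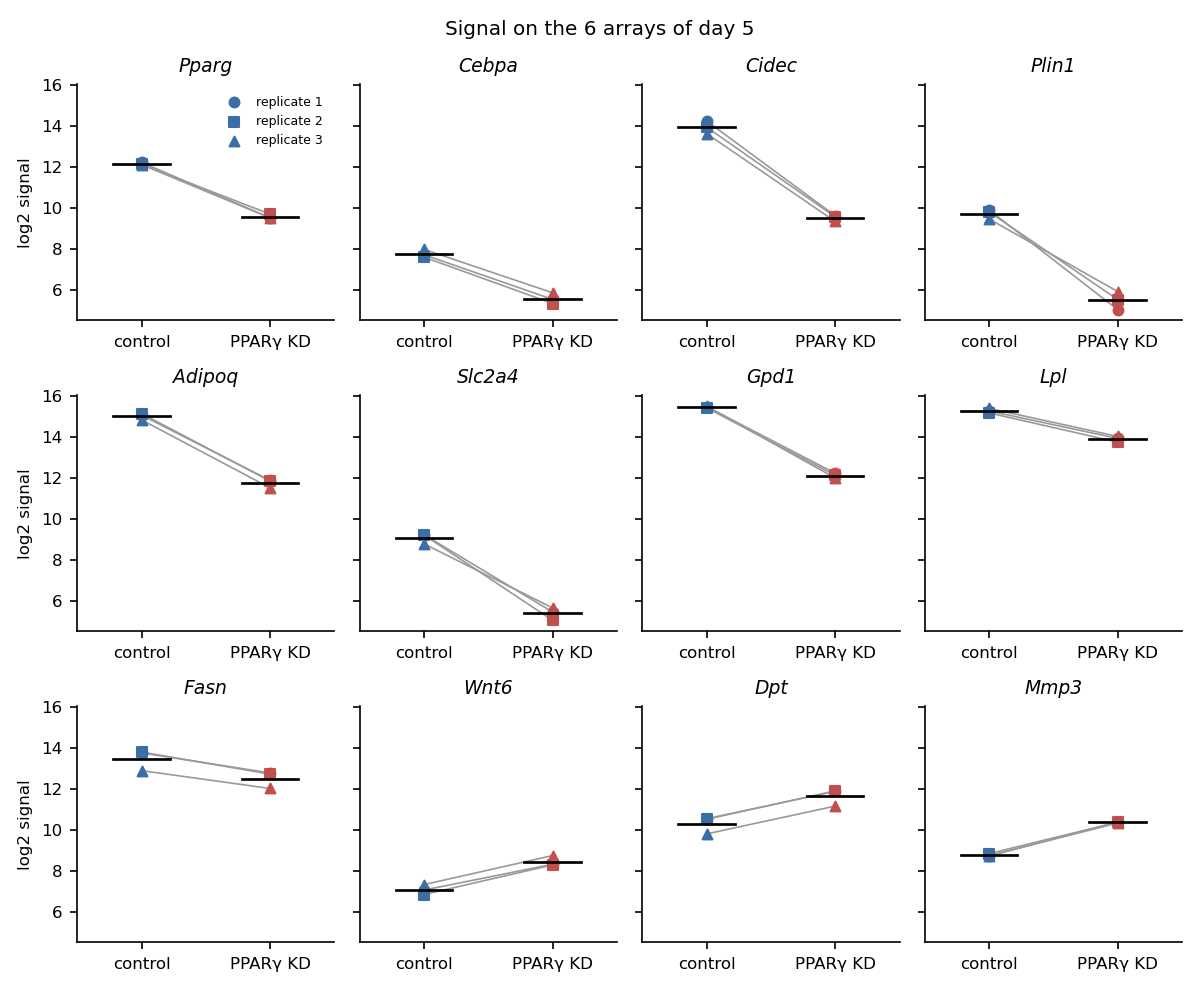
The log2 signal (y axis) of 12 genes on the 3 control and 3 PPARγ KD arrays of day 5, 1 symbol per replicate number, with lines joining the arrays of the same number and bars at the group means. In 9 genes every PPARγ KD signal lies below every control signal, and in Wnt6, Dpt and Mmp3 every one lies above.

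Of 10 fibroblast markers 0 were called by limma with Bonferroni correction, with a median of 0.28 and 8 members above 0. At an unadjusted p under 0.05 there were 6, and Benjamini-Hochberg adjustment called 3, all higher. Col1a2 had a difference of 0.52, Col3a1 of 0.44 and Pdgfrb of 0.43, and none of the 3 passed the Bonferroni threshold. Markers of other lineages were at or near background. Of 15 markers of macrophages and blood cells, 13 were above background on all 3 arrays of neither group, among them Ptprc and Adgre1, and limma with Bonferroni correction called 0 (1 at an unadjusted p under 0.05 and 1 with Benjamini-Hochberg adjustment). Lyz2, above background on all 6 arrays, had a difference of 0.84 (adjusted p = 0.0589). Endothelial (10 genes), muscle (10) and bone and cartilage (9) markers also gave 0 calls by limma, with medians of 0.06, 0.03 and −0.08. At an unadjusted p under 0.05 they gave 0, 2 and 3 genes, and with Benjamini-Hochberg adjustment 0, 2 and 2. Of 15 reference genes 1 was called, the transferrin receptor Tfrc (−0.96), and Gapdh read −0.33 without passing.

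Among genes for proteins of the lipid droplet most calls were falls. Of 16 measured genes 9 were lower and 1 was higher, with a median of −0.84. The list also held Mrap, which is a partner of a receptor rather than a coat of the droplet, and without it, a choice made after seeing the data, 8 of 15 genes were lower and the median was −0.74. Beside Cidec, Plin1 and G0s2 the lower genes included Plin4 (−2.08), Bscl2, which encodes seipin (−1.77), and Plin2 (−0.93), the perilipin that coats small droplets in many cell types. Plin3, a perilipin found in most cells, was the gene that rose. Its signals were 10.60, 10.54 and 10.16 in control cells and 11.10, 11.12 and 10.61 after PPARγ siRNA, so that it was higher by 0.51 (SE 0.09, adjusted p = 0.0383). This call was lost when any 1 of the 3 replicates was left out and under median scaling.

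Enzymes that break down stored fat, and their regulators, were also lower. Of 18 genes of lipolysis 10 were called, all lower, with a median of −1.88 (−1.41 with 4 genes at their bounds). Pnpla2, which encodes ATGL, the lipase of the first step, read 14.37, 14.42 and 14.28 in control cells and 11.26, 11.14 and 11.30 in the PPARγ KD, an 8.72-fold fall with little spread in either group. Lipe, the hormone-sensitive lipase, changed by −3.40 and was above background on 1 of 3 PPARγ KD arrays, the carboxylesterase Ces1f by −3.38 and the monoglyceride lipase Mgll by −1.44, each of the latter pair above background on 2 of 3 PPARγ KD arrays. Hcar1, the lactate receptor that restrains lipolysis, was at least 4.17-fold lower, Adrb3, the β3-adrenergic receptor that starts it, at least 2.59-fold lower, and Aqp7, the channel by which glycerol leaves the cell, at least 6.62-fold lower. Inhibitors and enzymes of this pathway thus fell side by side.

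For triglyceride synthesis 8 of 22 genes were called, all lower, and the median over the list was only −0.28. The called genes changed by 4-fold or more. Gpd1 read 15.47, 15.41 and 15.49 in control cells and 12.22, 12.12 and 11.99 in the PPARγ KD. Both enzymes of the last step, Dgat2 and Dgat1, changed by −3.10 and −2.58, Gpat3 of the first step by −2.96, and Agpat2, which is mutated in a congenital lipodystrophy, by −2.11. Pnpla3 (adiponutrin), above background on 1 of 3 PPARγ KD arrays, changed by −4.16 and Pcx, the pyruvate carboxylase that feeds glyceroneogenesis, by −2.90. Other isoenzymes of the same steps, picked after their values were seen, had small differences: Agpat1 −0.21, Agpat3 −0.21 and Gpat4 −0.14, none of them called. For uptake, binding and activation of fatty acids 4 of 19 genes were called, all lower, Acsl1, Fabp5 (−2.36, above background on 2 of 3 PPARγ KD arrays), Lpl and Dbi (−0.95), the acyl-CoA binding protein.

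Lipogenesis and the supply of NADPH showed 12 of 26 genes called, all lower (median −0.45). Thrsp, a regulator of lipogenesis known as Spot 14, changed by −4.09 with 1 PPARγ KD array above background, Scd1, the stearoyl-CoA desaturase, by −2.48, Acss2 by −2.13, the citrate carrier Slc25a1 by −1.47 and Taldo1, of the pentose phosphate pathway, by −1.28. The fatty acid synthase Fasn read 13.75, 13.79 and 12.88 in control cells and 12.77, 12.71 and 12.02 in the PPARγ KD. Replicate 3 was lower than the others in both groups, and within each replicate number the difference was close to its mean of −0.97 (SE 0.09). Acly, which makes cytosolic acetyl-CoA, changed by −0.82. Acaca, the acetyl-CoA carboxylase that sets the rate of the pathway, had a difference of 0.35 (SE 0.12) on a dim probe and was not called.

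Cholesterol synthesis was called in 14 of 21 genes, all lower, with a median of −0.86. Insig1, which holds the sterol sensor in the endoplasmic reticulum, read 10.30, 10.21 and 10.23 in control cells and 7.63, 7.41 and 7.76 in the PPARγ KD (−2.65, SE 0.13). The enzymes changed by less: Dhcr7 by −1.42, the lanosterol synthase Lss by −1.38, Cyp51 by −1.35 and Mvd by −1.27. Srebf2, the transcription factor of the pathway, had a difference of −0.18 that did not pass.

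A part of the genes of mitochondria and peroxisomes was also lower in the PPARγ KD, mostly by less than 3-fold. For fatty acid oxidation 17 of 37 genes were called, all lower (median −0.51). The largest falls were peroxisomal, in Abcd2 (−2.49), a transporter of very long-chain acyl-CoA, in Pex11a (−2.28), which drives peroxisome division, and in Pxmp2 (at least 3.25-fold). Acads, Cpt2, Acadm and Acadvl of mitochondrial β-oxidation changed by −1.36, −1.13, −1.13 and −1.07. For the breakdown of branched-chain amino acids 12 of 24 genes were called, all lower, and every one of the 24 differences was below 0 (median −0.86). Bcat2, the transaminase of the first step, changed by −1.71, Aldh6a1 by −1.52, Ivd by −1.21 and Bckdha, of the committed step, by −1.02. In pyruvate oxidation and the TCA cycle 15 of 30 genes were called, all lower (median −0.63), with Mpc2, a subunit of the mitochondrial pyruvate carrier, at −1.20, Aco1 at −1.15, Mdh1 at −1.03, Idh3g at −1.01 and the citrate synthase Cs at −0.81.

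The subunits of oxidative phosphorylation split into a pair of genes that were lost and many that moved a little. Of 64 genes 16 were called, all lower, and 59 differences were below 0, with a median of −0.28. Cox8b read 10.54, 10.51 and 9.99 in control cells and fell to background (at least 13.9-fold lower), as did Cox7a1 (at least 8.76-fold). Both are tissue-restricted subunits of cytochrome c oxidase found in muscle and in brown fat. The next largest were Cycs, cytochrome c, at −1.19 and Cyc1 at −1.07, and the other 12 called subunits lay between Uqcrc2 at −0.81 and Ndufb8 at −0.45. Of 10 genes of brown adipocytes Cox8b and Cox7a1 were the only called ones, and Ucp1, the uncoupling protein, was above background on none of the 6 arrays. Glycolysis had 6 of 20 genes called, all lower (median −0.27): Pfkfb3, which makes the activator of phosphofructokinase (−1.67), Aldoa (−1.26), Pfkl (−1.14), Ldha (−0.73), Gpi1 (−0.66) and Pgk1 (−0.63).

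Some of these smaller falls were not called with 1 replicate fewer. Without replicate 1 the calls of Mgll, Ldha, Pgk1, Ndufb8 and Mgst1 were lost, and without replicate 2 those of Acadm, Aco1, Bckdha, Mdh1, Pgk1, Ndufb8 and Mgst1, while Ndufb8 was also lost without replicate 3. The differences themselves moved little: Pgk1 was at −0.64 and −0.58 without replicate 1 and 2, and Mgll at −1.45 without replicate 1. The groups of Mdh1 overlapped, since both signals of replicate 3 were low.

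**Figure D3:**
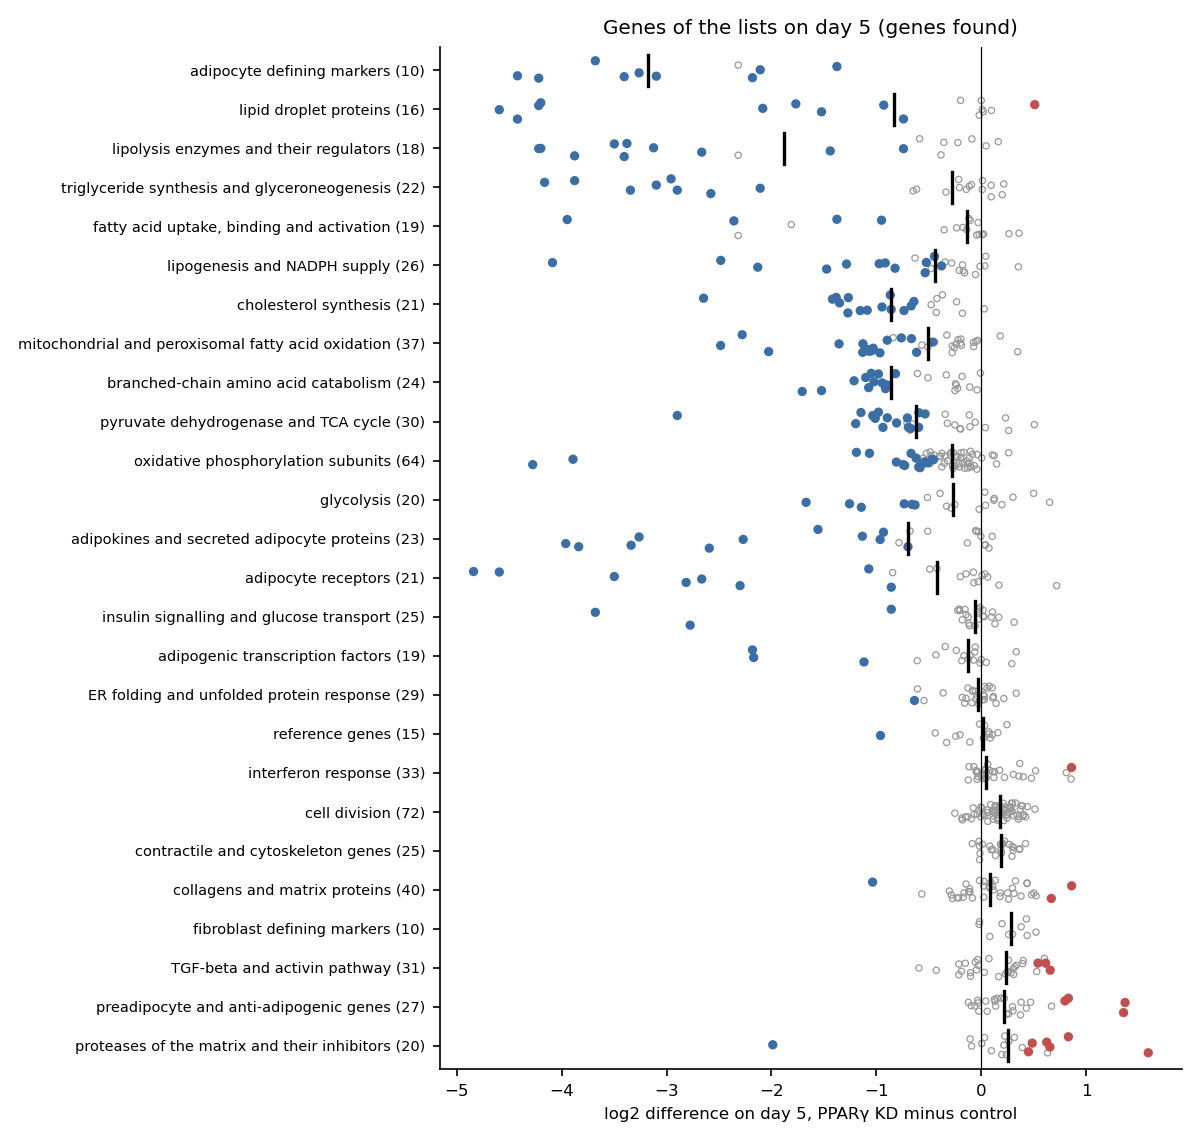
The log2 difference on day 5 (x axis, PPARγ KD minus control) of each gene in 26 lists (rows, with the number of genes found). Filled points are called (blue lower, red higher), open circles are not, and black bars are list medians, which run from −3.18 for adipocyte markers to 0.28 for fibroblast markers.

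Some secreted and membrane proteins of the fat cell were also lower. Of 23 adipokines and other secreted proteins 11 were called, all lower (median −0.70). Cfd, the complement factor adipsin, read 15.38, 15.39 and 15.67 in control cells and 12.14, 12.25 and 12.03 in the PPARγ KD (10.1-fold), Itih4 was at least 2.36-fold lower and Retn, resistin, at least 2.13-fold lower. Angptl4, an inhibitor of lipoprotein lipase, changed by −0.96 and C3 by −0.93. Lep was called too, but its probe was above background on none of the 6 arrays and no fold is given. Of 21 adipocyte receptors 8 were called, all lower (median −0.42, or −0.22 with 6 genes at their bounds). Beside Ffar2, Mrap, Hcar1 and Adrb3 these were Ffar4, the receptor for long-chain fatty acids (at least 3.40-fold), Mc2r, the ACTH receptor that Mrap serves (at least 2.35-fold), the adiponectin receptor Adipor2 (−1.07) and the insulin receptor Insr (−0.86). Of 25 genes of insulin signalling and glucose transport only Slc2a4, Insr and Rasd1 were called, all lower, and the groups of Insr overlapped (8.11, 7.81 and 8.51 against 6.99, 7.03 and 7.84). The calls of C3, Rasd1 and Ephx2 were lost without replicate 1 and without replicate 2, and that of Cavin2 without replicate 1. Of 37 antioxidant and detoxifying enzymes 10 were called, all lower, led by Gsta3 (−2.39, above background on 2 of 3 PPARγ KD arrays), Gstz1 (−2.08), Ephx2 (−1.60) and Aox1 (−1.04). Of 8 caveola proteins Cav2 (−1.60) and Cavin2 (−0.85) were called, while Cav1, the main coat protein, had a difference of −0.31 that did not pass.

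The rises were fewer and smaller. Mmp3 (stromelysin-1), a protease of the matrix, led those above background on all 6 arrays with signals of 8.72, 8.84 and 8.75 in control cells and 10.38, 10.38 and 10.33 in the PPARγ KD (1.59, SE 0.12, adjusted p = 8.75e-11). Prokr1, a prokineticin receptor, followed at 1.51. Wnt6, a ligand of the pathway that holds preadipocytes back, read 7.07, 6.85 and 7.34 in control cells and 8.33, 8.29 and 8.75 in the PPARγ KD (1.37, SE 0.10). Dpt, the matrix protein dermatopontin, rose from 10.52, 10.54 and 9.80 to 11.90, 11.88 and 11.16 (1.36, SE 0.14). In Dpt replicate 3 was lower than the others in both groups, and in both genes the differences within a replicate number were alike. Stc1 (stanniocalcin 1) was higher by 1.27, Cxcl15 by 1.16, the sulfotransferase Chst2 by 1.04, Aebp1 by 1.04, BC064033 by 1.03 and Aldh3a1 by 1.02. Efnb2, Olfr1036, Capn6, Rab3il1 and Tinag were higher by 0.98 to 0.90. Of probes above background in the PPARγ KD alone, that of Elmo1 was at least 1.97-fold higher, Ear2, one of a family of near-identical ribonucleases, at least 1.72-fold and Efcab15 at least 1.66-fold, and the bounds of Ifit3, Nrn1l and Dnm1 were below 1.3-fold. Dnm1 also had a brighter probe, above background on all 6 arrays, with a difference of 0.38 that was not called. All 25 genes taken as the largest falls were called under each of the 14 alternatives in which they were tested, but of the 21 taken as the largest rises only 4 were (Mmp3, Wnt6, Chst2 and Efcab15).

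Of 27 preadipocyte and anti-adipogenic genes 4 were called, all higher (14.8%), which leaves most of the list without a call. Over all genes by their brightest probe 0.678% rose, and 1.54% of those above background on at least 3 of 6 arrays. The 4 called genes were Wnt6, Dpt, Plat (0.83), which encodes tissue plasminogen activator, and Gata2 (0.80), a transcription factor that restrains adipogenesis. Npy1r had a difference of 0.67 and Dlk1, the classical preadipocyte marker, of 0.30, and neither passed. Matrix proteases and their inhibitors had 6 of 20 genes higher and 1 lower: Mmp3, Plat, Serpine2 (0.65), Adamts2 (0.62), Mmp14 (0.49) and Timp2 (0.45) rose, and Timp4, an inhibitor of metalloproteases made by fat cells, changed by −1.99 with 1 PPARγ KD array above background. Of 40 collagens and other matrix proteins Mfap5 (0.86) and Thbs2 (0.67) rose and Col15a1 (−1.04, above background on 2 control arrays and no PPARγ KD array) fell. In the TGF-β pathway 3 of 31 genes were called, all higher, the latent binding protein Ltbp1 (0.66), the receptor Tgfbr2 (0.61) and the ligand Tgfb3 (0.54). The calls of Plat, Gata2, Serpine2, Adamts2, Mmp14, Timp2, Ltbp1, Tgfbr2 and Tgfb3 were lost without replicate 1 and without replicate 2, that of Mfap5 and Col15a1 without replicate 1 and that of Thbs2 without replicate 2.

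Several programmes gave few or no calls at this stage, beside 3.24% of all probes called in either direction. The interferon, chemokine and ER lists, with 1 call each (3.03% to 3.45% of their genes), were close to that share. Of 72 genes of cell division 0 were called by limma with Bonferroni correction, 20 had an unadjusted p under 0.05 and 4 passed with Benjamini-Hochberg adjustment, all of them higher. The median of the list was 0.18, with Rrm2, a subunit of ribonucleotide reductase, at 0.51 and Mki67 at 0.22. Of 25 contractile and cytoskeletal genes limma with Bonferroni correction called 0, 10 had an unadjusted p under 0.05 and 6 passed with Benjamini-Hochberg adjustment, all higher. Of 33 interferon-response genes Ifit3 was called as higher, and Bst2 had a difference of 0.81 that did not pass. With Benjamini-Hochberg adjustment 5 of them passed, all higher. Of 31 chemokine and inflammation genes Hp was the only one called, while 2 lower and 5 higher genes passed with Benjamini-Hochberg adjustment. Of 29 genes of ER folding and the unfolded protein response Xbp1 was called (−0.64), a call lost when any 1 replicate was left out. Of 10 CDK inhibitors and retinoblastoma proteins Cdkn2c (−0.95) and Rb1 (−0.92) were called, both lower, with Rb1 not called without replicate 2. This is 20% of a small list, above the 3.14% of all genes called lower and the 6.90% of those above background on at least 3 of 6 arrays.

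Whether the effect on day 5 differed from that on neighbouring days was tested with the difference of the 2 effects in the same fit. Against day 4, 6 of 24613 probes were called (0.0244%), and all 6 had a more negative effect on day 5. Sncg, which encodes γ-synuclein, read 9.96, 9.83 and 9.37 in control cells of day 5 and 6.22, 6.84 and 6.69 in the PPARγ KD. Its effect was −1.0 on day 4 and −3.14 on day 5, a difference of −2.13 (SE 0.25), while its mean in the PPARγ KD was 6.75 and 6.58 on these days and its mean in control cells rose from 7.75 to 9.72. The same held for Egln3, the oxygen-dependent prolyl hydroxylase PHD3: control means of 9.02 and 10.50 stood beside PPARγ KD means of 8.10 and 8.0, and the effects differed by −1.58 (SE 0.20). For Ffar4 the difference was −1.83, with a probe above background in neither group on day 4 and in control cells alone on day 5. Pdk1, the kinase that restrains pyruvate dehydrogenase, had an effect of 0.12 on day 4 and of −0.90 on day 5, Cav2 of −0.69 and −1.60, and the probe listed as LOC100047934 of −0.84 and −1.59. In all 6 the control mean was higher on day 5 than on day 4. The PPARγ KD mean also went down for Pdk1 (9.66 to 9.45) and Cav2 (8.68 to 8.46). For LOC100047934 it went from 10.24 to 9.75, beside control means of 11.08 and 11.34.

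Against day 6 only Sncg was called (0.00406% of probes). Its effect was still larger on day 6, at −4.67, a difference of 1.54 (SE 0.25, adjusted p = 0.0128). On day 5 and on day 6 its probe was above background on only 1 of 3 PPARγ KD arrays. The effects of Ffar4, Egln3, Pdk1 and Cav2 were −3.56, −3.50, −1.50 and −1.80 on day 6. The count against day 4 ranged from 1 to 14 and that against day 6 from 0 to 4 over the alternatives tried. Sncg against day 4 was called in 12 of 13 alternatives, Egln3 in 9, Ffar4 in 8, Pdk1 and LOC100047934 in 6 each and Cav2 in 5. Without replicate 1 and without replicate 2 limma called 1 probe against day 4 and 0 against day 6 (6 and 1 with all replicates, with 935 and 1066 at an unadjusted p under 0.05), and without the replicate block 1 and 0. None of the 6 genes was called in the fit of the 18 arrays of days 4 to 6 alone.

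**Figure D4:**
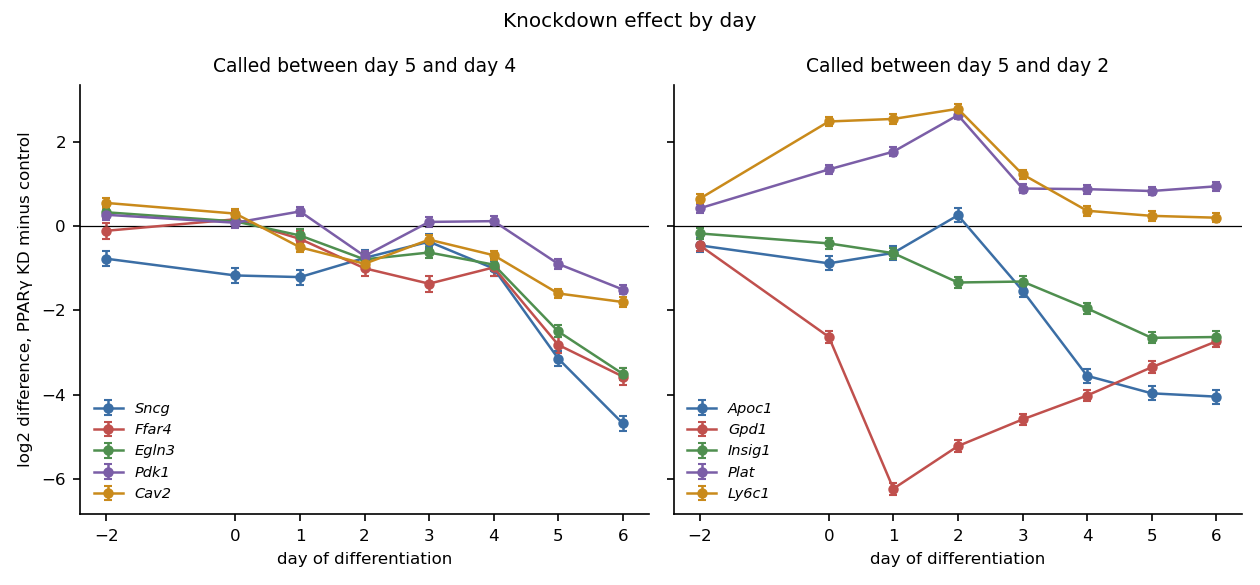
The log2 difference between PPARγ KD and control (y axis, with SE bars from the fit over 48 arrays) on each day of differentiation (x axis). Left, 5 genes whose effect differed between day 5 and day 4, with Sncg going from −1.0 to −3.14. Right, 5 genes whose effect differed between day 5 and day 2, where Apoc1 went from 0.26 to −3.96 and Ly6c1 from 2.78 to 0.24.

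Far more probes separated day 5 from day 2, the last day of the insulin and rosiglitazone treatment. The effects differed for 477 probes (1.94%), of which 378 were more negative on day 5 and 99 more positive. Within the same direction, 67 effects were larger and 279 smaller on day 5, and 131 had opposite signs on the 2 days, although in only 5 of these did both effects exceed 1.5-fold. Without the replicate block 183 probes were called, and 116 and 124 without replicate 1 and without replicate 2.

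Some genes had a more negative effect by day 5. Apoc1 had an effect of 0.26 (SE 0.16) on day 2 and of −3.96 on day 5, with a control mean of 8.08 that reached 13.33. Cox8b and Ranbp3l were above background in neither group on day 2 and in control cells alone on day 5, with differences between the effects of −3.84 and −3.40. Apoc4 (−3.19) was above background on day 5 in control cells alone. Aldh1a7 had high signals in both groups on day 2 (12.23 and 12.12) and was reduced in the PPARγ KD by day 5 (11.37 and 8.29), and the effect on Pnpla3 was −1.30 on day 2 and −4.16 on day 5, with 0 and 1 of 3 PPARγ KD arrays above background. Of the 21 genes of cholesterol synthesis 7 had a more negative effect on day 5 than on day 2 and 0 a more positive one. Tm7sf2, a sterol reductase, turned from 0.67 to −1.15, and Insig1 went from −1.34 to −2.65. The median effect of this list was −0.25 on day 2, −0.53 on day 4, −0.86 on day 5 and −0.99 on day 6.

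Other effects had shrunk by day 5. The effect on Gpd1 was −5.21 on day 2 and −3.34 on day 5: its mean in the PPARγ KD went from 9.58 to 12.11 while that in control cells went from 14.79 to 15.45. Mc5r, a melanocortin receptor, and Ttc39a were lower on day 2 (−2.33 and −2.16) when control arrays alone were above background, and on day 5 neither group was. Prg4 went from −2.35 to −0.61 and Chchd10, a mitochondrial protein, from −1.59 to 0.01, both above background on no PPARγ KD array of day 2. Smpdl3b went from −1.37 to 0.10. Some preadipocyte and contractile genes had a smaller positive effect on day 5 than on day 2. Of 27 preadipocyte genes 8 and of 25 contractile genes 11 had a more negative effect on day 5 than on day 2, and 0 of either list a more positive one, beside 1.94% of all probes called in either direction. Ly6c1 went from 2.78 to 0.24, Plat from 2.63 to 0.83, Wnt6 from 2.43 to 1.37, the smooth muscle actin Actg2 from 2.16 to 0.31 and the calponin Cnn2 from 1.94 to 0.36. The medians of the 2 lists were 0.92 and 0.86 on day 2 and 0.22 and 0.19 on day 5. Of 31 chemokine and inflammation genes 6 had a more negative effect on day 5 and 1 a more positive one. Ccl9, Ccl7 and Csf1 went from 1.98, 1.88 and 1.86 to 0.14, 0.47 and 0.42, Hp from −1.93 to −3.84, and Tnfaip3, the gene that went the other way, from −1.42 to −0.41, a call lost when any 1 replicate was left out. By contrast, the median effect on the 10 adipocyte markers was −3.04 on day 2, −3.06 on day 4, −3.18 on day 5 and −2.61 on day 6.

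Genes that the study itself took to reporter assays or to a screen of lipid accumulation were chosen in part on these arrays, so their direction is not independent evidence. The list held 12 genes, which are not all that the study tested. Of the 11 found under the symbols used here, 8 were called on day 5, all lower. These were Cidec, Plin1, Gpd1, Sncg, Pcx, Mknk2 (−1.35), Pim3 (−1.07) and Mgst1 (−0.98). Of the 11 differences 9 were below 0 and 2 above, the highest at 0.59. With Benjamini-Hochberg adjustment 9 genes passed as lower and 1 as higher. The probe listed as BC054059, which the study's text gives as another name of adipogenin, one of the genes of the screen, is not among the 11 and changed by −4.57.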

How the data were processed

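Expression was measured on MouseRef-8 v1.1 BeadChips. The deposited table held, per array, the mean bead signal intensity of each probe as the authors exported it from BeadStudio 3.3.7 with no normalization, a detection value deposited as a fraction (1 minus the detection p), and bead numbers (a median of 34 to 35 a probe on day 5). Their number of beads limits the precision of each array. The file of 48 arrays was read in R 4.3.3, and groups and replicate numbers came from the labels. Signals were background-corrected by normexp with the detection p-values (offset 16) and scaled on probes between the 50th and 90th percentile whose rank moved by less than 0.05, and log2 was taken.

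limma 3.58.1 (lmFit and eBayes) was fitted to all 48 arrays with 1 mean for each siRNA on each day, blocked on replicate number. PPARγ KD minus control on day 5, and its difference from the effects on days 4, 6 and 2, were tested with Bonferroni correction over 24613 probes. The replicate numbers come from the labels, and on day 5 the deviations of same-numbered arrays from their group means correlated at 0.733, 0.735 and 0.879. Control replicate 1 with PPARγ KD replicate 2 gave 0.757, and control replicate 2 with PPARγ KD replicate 1 gave 0.708. The signals thus set replicate 3 apart but do not tell the labelled pairing of replicates 1 and 2 from the swapped one. No array pair of day 5 was identical. In data simulated for day 5 over 24613 probes, 24 of 73 changes of 0.5, 62 of 63 of 1 and 64 of 64 of 2 (log2) were called, with 0 false calls. The changes were placed only in probes above background on all 6 arrays, and the noise was drawn independently for each probe and array. Dim probes, and shifts that many probes of an array share beyond the replicate block, were therefore not tested.

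Symbols were updated through RefSeq (22704 of 24613 probes matched), and the brightest probe stood for a gene in the lists. Named genes were the 15 largest changes each way above background on all 6 arrays and the largest bounds (10 lower, 6 higher), with members of each list. The members and lists were chosen with earlier results of these data known, and genes named beyond the rule after their values were seen. A few genes that the rule or the lists hold are not reported here. The 14 alternatives are given at the end. The chip each array lay on was not given in the sources used here.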

Additional observations from a re-analysis of the deposited data

Results flagged for a closer look

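The effect of PPARγ siRNA differed between day 5 and another day for 6 probes against day 4, 1 against day 6 and 477 against day 2, by a test of the difference itself in the limma fit.

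Against day 4, the differences of the effects (day 5 minus day 4, log2) were −2.13 for Sncg, −1.83 for Ffar4, −1.58 for Egln3, −1.01 for Pdk1, −0.91 for Cav2 and −0.75 for LOC100047934. Against day 6, Sncg differed by 1.54.

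Against day 2, the most negative differences were −4.22 for Apoc1, −3.84 for Cox8b, −3.40 for Ranbp3l, −3.19 for Apoc4, −2.97 for Aldh1a7 and −2.87 for Pnpla3. The most positive were 1.93 for Mc5r, 1.87 for Gpd1, 1.83 for Ttc39a, 1.75 for Prg4, 1.59 for Chchd10 and 1.47 for Smpdl3b. Of these 12 genes, 7 were called under all alternatives tried for them (Apoc1, Cox8b, Ranbp3l, Apoc4, Ttc39a, Chchd10 and Smpdl3b). Where a group was above background on no array of a day, as for Cox8b, Ranbp3l and Apoc4 on day 2 and for Pnpla3 in the PPARγ KD on that day, the difference was measured against a signal at background.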

How the results depend on the processing

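The count of 798 probes on day 5 became 518 with median scaling, 354 in the fit of the 6 arrays alone and 2605 with Benjamini-Hochberg adjustment, and between 378 (without replicate 1) and 624 (without replicate 3) when 1 replicate was left out. Without the replicate block it was 430, and the genes named in the report that were then not called included Fasn, Acly, Lss, Cpt2, Insr, Dpt, Prokr1 and Stc1. The other alternatives gave 540 to 961.

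The count of 6 against day 4 became 12 with quantile normalization, 10 with an offset of 50, 11 with trend and robust moderation and 14 with Benjamini-Hochberg adjustment. It was 1 without the replicate block, 2 with the block by day, 1 with the 18 arrays of days 4 to 6, and 1 to 11 without 1 replicate. The count of 1 against day 6 became 4 with quantile normalization and 2 each with an offset of 50 and with trend and robust moderation. limma called 0 without the replicate block, with the block by day and with the 18 arrays, and 0 to 3 without 1 replicate (1066 at an unadjusted p under 0.05 in the fit of all 48 arrays). The count of 477 against day 2 became 266 with median scaling, 183 without the replicate block, 261 with the block by day and 2250 with Benjamini-Hochberg adjustment, and 116 (without replicate 1) to 308 (without replicate 3) without 1 replicate. The cause of these shifts was not tested, except that fits with fewer arrays have fewer degrees of freedom.

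Of 175 listed or named genes called on day 5, 90 were called under every alternative and 0 changed direction. Only 34.2% to 38.4% of the probes were above background on an array of day 5, and a change between signals that both lie at background could not be detected.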

Other observations

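Further genes, picked after their values were seen and outside the lists, were called as higher in the PPARγ KD on day 5. Among them were 3 lysosomal enzymes: Ctsa, a protective carboxypeptidase (log2 difference 0.77, SE 0.11), the α-mannosidase Man2b1 (0.61) and the acid α-glucosidase Gaa (0.48). Twist1, a transcription factor of mesenchymal cells, was higher by 0.58, the corepressor Runx1t1 by 0.74, Sema3a, a secreted guidance protein, by 0.74 and the vitamin D receptor Vdr by 0.48. The keratan sulfate proteoglycan Kera had a difference of 1.87, with 0 of 3 control and 2 of 3 PPARγ KD arrays above background. In all of these but Sema3a the groups did not overlap. The same held for 747 of the 798 called probes and 12.4% of all probes, so it is not separate support. Leaving out replicate 1, replicate 2 or the block term ended each of the 8 calls, and median scaling ended all but that of Kera.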
